A study of Mus musculus with 6 samples.

Results

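Guanylin signalling in the colon was followed here through 5 genes: Guca2a and Guca2b, which encode the peptide ligands guanylin and uroguanylin, Gucy2c, their receptor, Prkg2, a kinase that responds to the receptor's product, and Pde5a, an enzyme that destroys that product. The members were the array probes whose RefSeq accession maps to these symbols, 6 probes for 5 genes of the 56605 probes and 23462 named genes on the array. Gene expression had been measured in colonic epithelium of 3 miR-31 knockout and 3 wild-type male mice, with 1 Agilent one-colour array for each animal. All 6 went through the same listed steps, the tissue being separated by flow into TRIzol, and neither group had any other listed treatment or allele. The strain, the age, the gate of the flow separation and the way in which miR-31 was removed are not given in the sources used here.

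Guanylin and uroguanylin are short peptides that epithelial cells release into the gut lumen. They bind guanylate cyclase C, the product of Gucy2c, on the apical membrane of neighbouring epithelial cells, and the receptor then makes cyclic GMP (cGMP). Cyclic GMP activates the membrane-bound kinase encoded by Prkg2, which opens the chloride channel CFTR and leads to inhibition of the sodium-proton exchanger encoded by Slc9a3, which favours secretion of salt and water into the lumen. Phosphodiesterases such as that of Pde5a end the signal.

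The microRNA missing in the knockout mice is shown first, since its loss is the only stated difference between the groups. Its 5p mature strand, from RefSeq (GRCm38.p6, chr4:88910614-88910635, minus strand), reads as follows with the seed, bases 2 to 8, in capitals.
mmu-miR-31-5p: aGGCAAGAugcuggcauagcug

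Guca2a and Guca2b are next to each other on the same chromosome, with 0 tested genes between them, and 184 tested genes lie between Mir31 and Guca2a on chromosome 4. The 250 bases before each start are shown because the ligand genes lie side by side. They come from RefSeq, GRCm38.p6, at chr4:119637482-119637731 on the plus strand for Guca2a and chr4:119658946-119659195 on the minus strand for Guca2b. Capitals mark matches to the motifs searched on both strands, AGATAA for GATA factors, CATAAA for CDX factors and TATAAA for the TATA box, which do not overlap one another here.
Guca2a: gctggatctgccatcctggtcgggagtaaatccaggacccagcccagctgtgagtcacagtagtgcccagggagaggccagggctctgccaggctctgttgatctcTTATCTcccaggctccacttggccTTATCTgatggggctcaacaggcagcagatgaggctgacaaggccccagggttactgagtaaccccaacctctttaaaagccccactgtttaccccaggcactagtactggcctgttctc
Guca2b: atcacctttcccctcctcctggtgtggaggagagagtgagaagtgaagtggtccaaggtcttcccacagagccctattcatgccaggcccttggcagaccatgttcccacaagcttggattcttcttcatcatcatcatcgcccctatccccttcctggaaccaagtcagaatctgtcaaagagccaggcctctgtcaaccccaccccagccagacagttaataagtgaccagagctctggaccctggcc

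The Guca2a window held the GATA motif at 2 places, beginning 144 and 120 bases before the start and read on the opposite strand. The Guca2b window held 0 matches to the 3 motifs. Of 32851 promoter windows of the same length, 9.99% held the GATA motif, 10.8% the CDX motif and 12.4% the TATA box. A match describes letters only. The 3 motifs were chosen after the windows had been read. RefSeq promoters were found for 3 of the 5 members, Guca2a, Guca2b and Pde5a.

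Levels are given as the log2 of the background-subtracted intensity over the 75th percentile of the same array, so 0 stands for the 75th percentile. A level belongs to its probe, and levels of different probes are not set against each other. Between 68.1% and 72.4% of spots were well above background on knockout arrays, against 72.2% to 76.7% on wild-type arrays, and 0 spots were saturated. The extraction software marked between 7.44% and 17.0% of spots as uneven or outlying on knockout arrays and between 4.95% and 17.3% on wild-type arrays, and marked spots were left out of the tests. All 36 member spots, 6 probes on 6 arrays, were well above background, and 5 of them were marked. Mean levels of marker lists keep marked spots unless stated. The defining markers of epithelium were well above background for 8 of 8 genes, with a mean level of 3.36 to 3.51 on knockout arrays and 3.39 to 3.62 on wild-type arrays. For endothelium, 4 of 6 markers (Cdh5, Emcn, Kdr and Tie1) were not well above background on any array. Markers of other cells were better detected. On at least 3 arrays, 8 of 8 immune, 7 of 8 smooth muscle and 4 of 6 fibroblast markers were well above background. On the array 0 probes carry the Mir31 accession, so the genotype labels were not checked. The labels name the animals and not how they were housed or related, and p-values measure the spread between these animals only.

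None of the members passed the test between genotypes. Of the 5, 4 could be tested, and 0 had an adjusted p under 0.05 (limma, Benjamini-Hochberg over 27916 features), against 0.208% of all features. At an unadjusted p under 0.05 there were 2 members, Prkg2 and Guca2b, both higher in knockout, where 10.7% of all features reached that level and 3.18% did so upward. That count was 1 with any 1 knockout array left out, 0 without wild-type array 1 or 2, 2 without wild-type array 3, and 1 (Prkg2) with the slide column as a block. The kinase had the largest difference among the tested members, the receptor and guanylin had small ones, and uroguanylin lay between them. No member had an adjusted p under 0.05 under any of the 18 alternative settings, each fit with 1 array left out included.

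**Figure D1:**
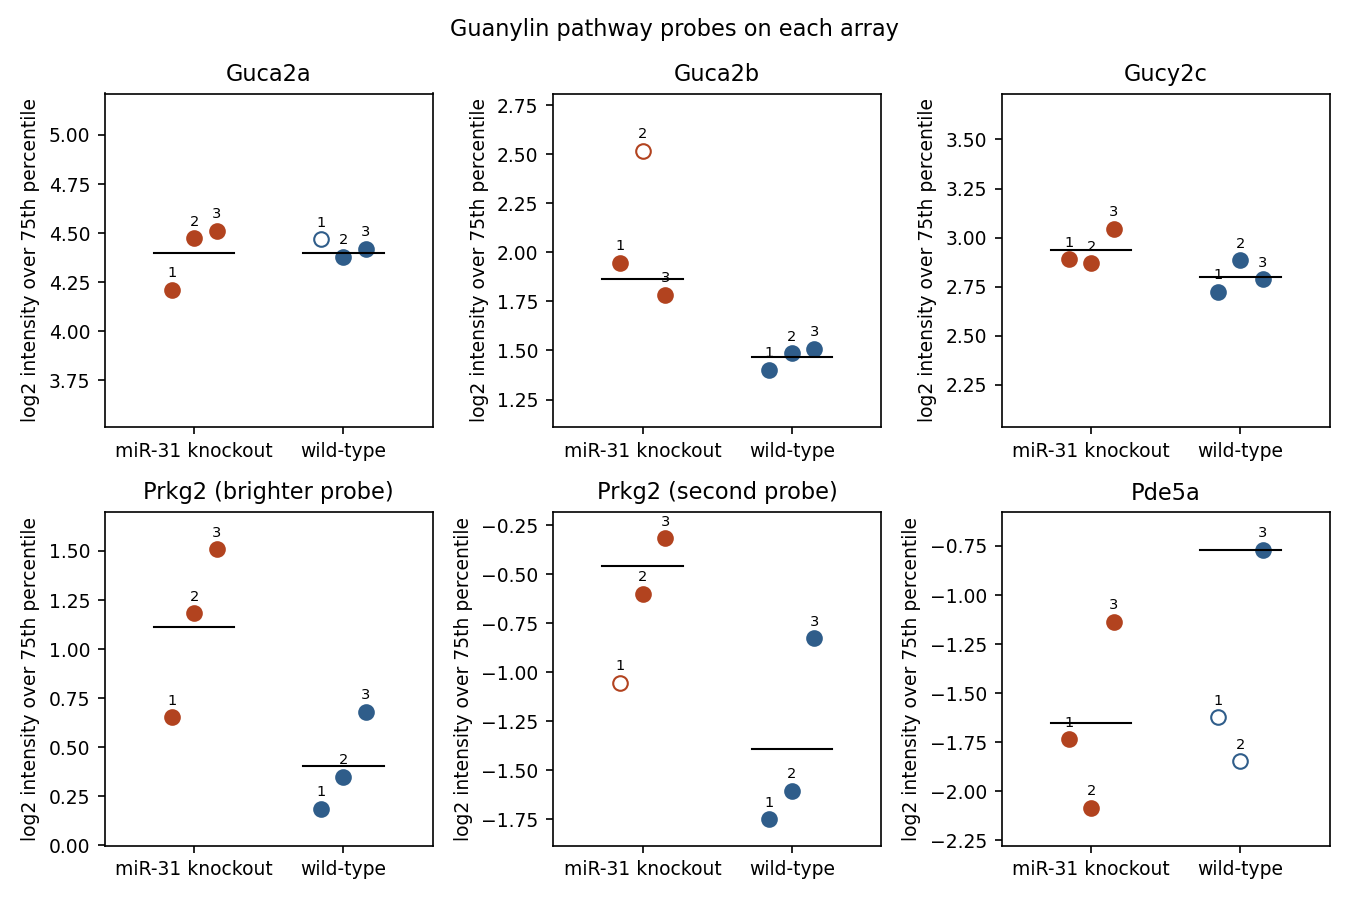
Log2 intensity over the 75th percentile of the array (vertical axes, each spanning the same number of log2 units) of the 6 member probes on 3 miR-31 knockout and 3 wild-type arrays, numbered by replicate. Open circles are spots marked by the extraction software, bars are means of the unmarked spots, and the knockout points of Prkg2 lie mostly above the wild-type points while those of Guca2a overlap them.

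Guca2a, the guanylin gene, averaged 4.40 ± 0.16 in knockout and 4.40 ± 0.03 in wild-type (SD, n = 3 and 2). Its probe read 4.21, 4.47 and 4.51 on knockout arrays 1 to 3, against 4.38 and 4.42 on wild-type arrays 2 and 3. The wild-type values fell inside the knockout range. The third wild-type spot, on array 1, was marked and read 4.47. The log2 change was -0.0015 ± 0.15 (SE, n = 3 and 2), with a 95% interval of -0.37 to 0.37, that is between 0.771-fold and 1.29-fold (adjusted p = 0.998, limma). The brightest Guca2a spot, 77962 intensity units, was at 10.02% of the scanner's saturation value of 777851.

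Guca2b, the uroguanylin gene, was the only tested member whose unmarked groups did not overlap at the brightest probe of the gene. It read 1.95 and 1.78 on knockout arrays 1 and 3, against 1.40, 1.49 and 1.51 on wild-type arrays 1 to 3. The lowest knockout value was above the highest wild-type value, which held upward for 5.56% of all features and in either direction for 18%. Those shares are over all features, whatever their number of unmarked arrays. Groups of 2 and 3 arrays separate more easily than groups of 3 and 3. The log2 change was 0.40 ± 0.14 (SE, n = 2 and 3), a 1.32-fold difference with a 95% interval of 1.05-fold to 1.66-fold, and it did not pass (adjusted p = 0.390, limma). The spot on knockout array 2 was marked and was the brightest of the 6, at 2.52. With it kept, the log2 change was 0.62 ± 0.20 and the adjusted p = 0.370 (limma), so the size of the difference depended on 1 marked spot, by more than 1.5 times, and the call did not.

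The genes beside the pair on chromosome 4 were read for comparison. On the Guca2a side, Foxj3, Frg2f1 and Rimkla had log2 changes of 0.11 ± 0.14, -0.07 ± 0.14 and -0.12 ± 0.31 (SE). On the Guca2b side, Hivep3, Foxo6 and Scmh1 had log2 changes of -0.17 ± 0.51, 0.52 ± 0.17 and -0.15 ± 0.13. None passed, the lowest adjusted p being 0.368 for Foxo6 (limma), a forkhead transcription factor gene. Its knockout arrays all lay above its wild-type arrays, which held for 5.56% of all features.

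Gucy2c, the receptor gene, overlapped between genotypes. Its probe read 2.89, 2.87 and 3.04 on knockout arrays 1 to 3, against 2.72, 2.88 and 2.79 on wild-type arrays 1 to 3. Knockout array 3 was the highest, and wild-type array 2 lay above knockout array 2. The log2 change was 0.14 ± 0.12 (SE, n = 3 and 3), with a 95% interval of 0.907-fold to 1.33-fold (adjusted p = 0.725, limma). No Gucy2c spot was marked on any of the 6 arrays, so this value rests on all of them.

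Prkg2 encodes the cGMP-dependent protein kinase of the apical membrane and was measured by 2 probes. The brighter one read 0.65, 1.18 and 1.51 on knockout arrays 1 to 3, against 0.19, 0.35 and 0.68 on wild-type arrays 1 to 3. Knockout arrays 2 and 3 were above every wild-type array, and knockout array 1 lay just below wild-type array 3. The log2 change was 0.71 ± 0.24 (SE, n = 3 and 3), a 1.63-fold difference with a 95% interval of 1.10-fold to 2.43-fold, which did not pass over all features (adjusted p = 0.377, limma). It ranked 1644th of 27916 features by p.

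The second Prkg2 probe gave a like pattern. It read -0.60 and -0.32 on knockout arrays 2 and 3, against -1.75, -1.60 and -0.83 on wild-type arrays 1 to 3, and its spot on knockout array 1, at -1.05, was marked. Its unmarked groups did not overlap, and with the marked spot they did. At the level of genes, knockout lay wholly above wild-type for 5.56% of all features. Both probes put the arrays in the same order from high to low: knockout 3, knockout 2, wild-type 3, knockout 1, wild-type 2 and wild-type 1. Its log2 change was 0.93 ± 0.30 (SE, n = 2 and 3; adjusted p = 0.376, limma fit over 33231 probes). Both probes read the same RNA of the same mice and are not replicates of the genotype.

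**Figure D2:**
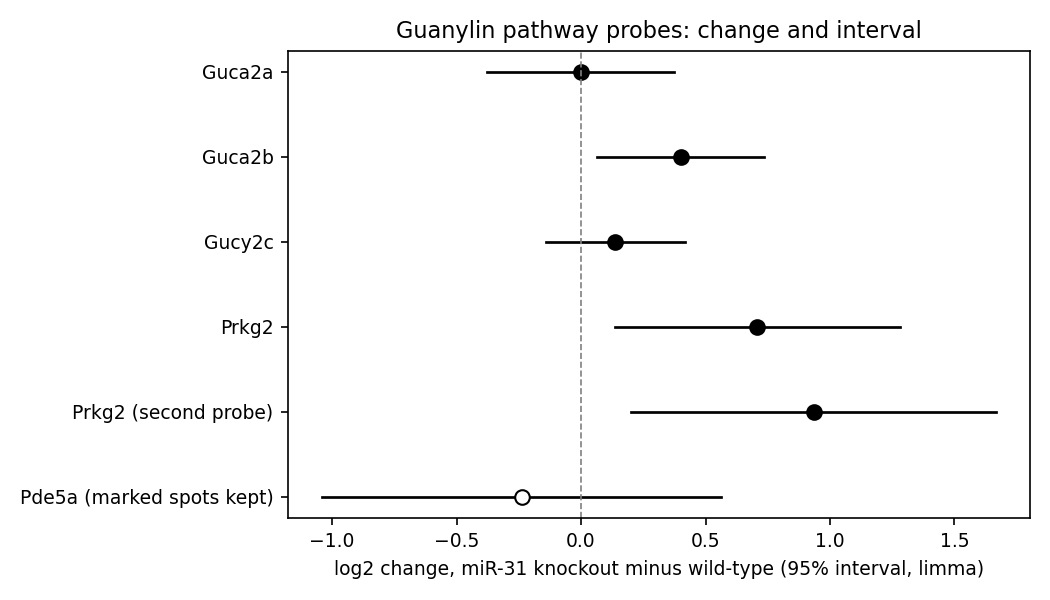
Log2 change, miR-31 knockout minus wild-type (horizontal axis), with its 95% interval from limma, for the 5 tested member probes (filled) and for Pde5a with its marked spots kept (open). The intervals of Guca2b and of both Prkg2 probes lie above 0 before any adjustment for the number of features, and those of Guca2a, Gucy2c and Pde5a include 0.

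Both genotypes were hybridised in columns 1 and 2 of 1 slide, and the slide row was the same for all arrays of a genotype, so that row and genotype cannot be told apart. Within column 1, knockout minus wild-type was 0.47 for the brighter Prkg2 probe, 0.54 for Guca2b and 0.17 for Gucy2c. Within column 2 it was 0.83 for Prkg2 and -0.01 for Gucy2c, and 1.03 for Guca2b with the marked spot. With the column as a block, the log2 change of Prkg2 was 0.65 ± 0.19 (SE; adjusted p = 0.191, limma) and that of Guca2b 0.54. Knockout array 3 was alone in column 3 and wild-type array 3 alone in column 4, so the block took both out of the comparison. The SE of Prkg2 then came from 2 column pairs and, in large part, from the variance of other features. That SE and its adjusted p are therefore not a sharper measure than those of the fit without the block. The Guca2b value is then its column 1 pair alone, as its spot on knockout array 2 was marked. The difference of Prkg2 had the same direction within both shared columns. For Prkg2 the log2 change without knockout array 3 was 0.51, and without knockout array 1 it was 0.94, the extremes over the arrays left out.

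**Figure D3:**
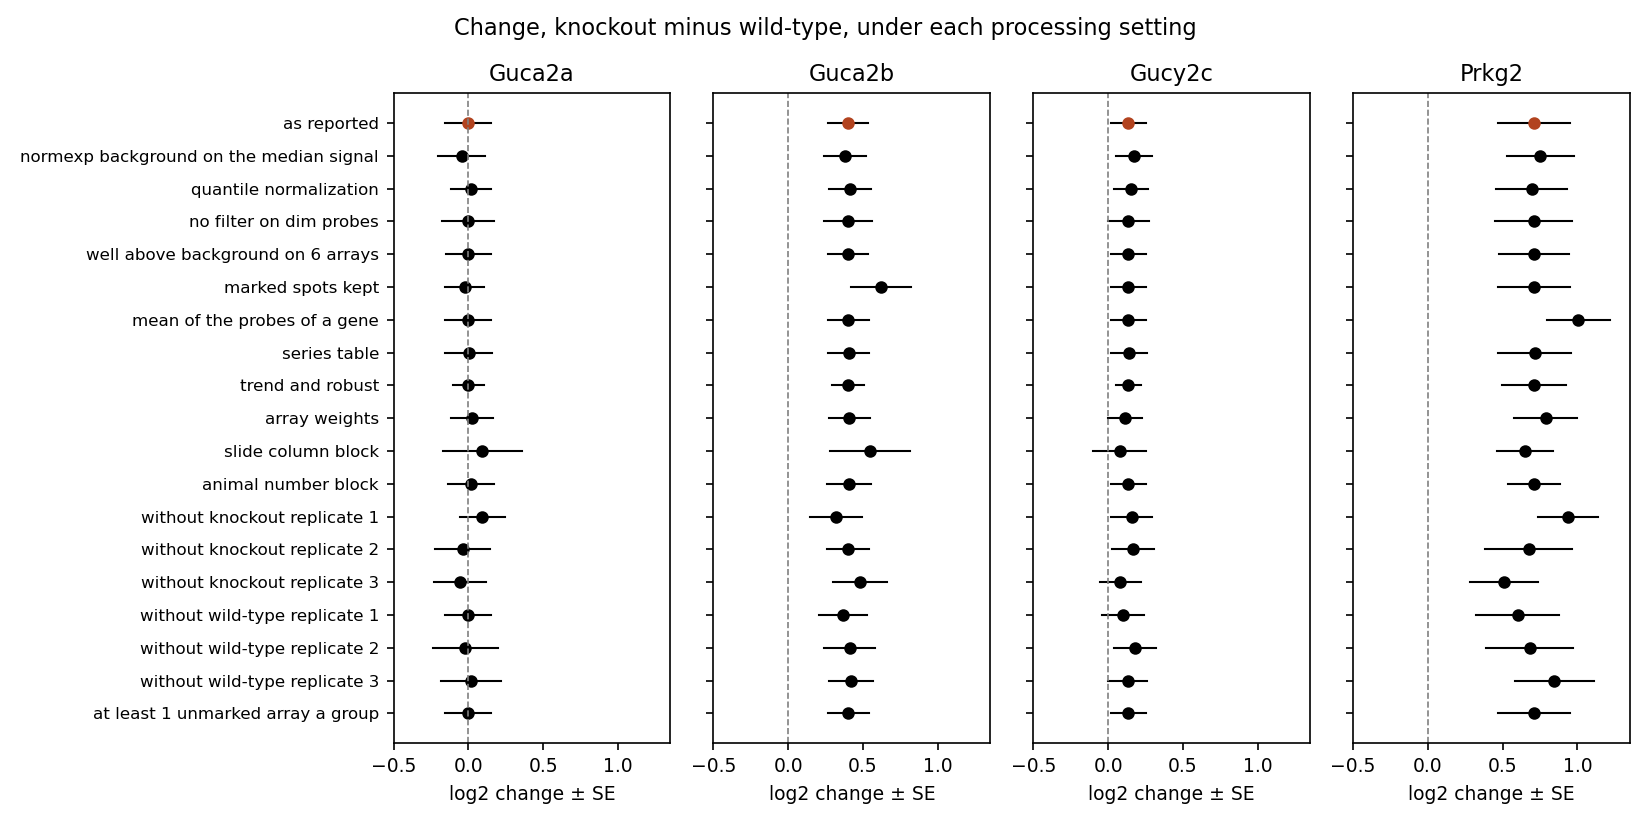
Log2 change, miR-31 knockout minus wild-type (horizontal axes, ± SE from limma), of the 4 tested members as reported (red) and under each of the 18 alternatives (black). Guca2b, Gucy2c and Prkg2 stay to the right of 0 under all of these, and Guca2a lies on both sides of it.

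Pde5a, which encodes the cGMP-specific phosphodiesterase, could not be tested, because 2 of its 3 wild-type spots were marked. It read -1.74, -2.08 and -1.14 on knockout arrays 1 to 3, against -0.77 on wild-type array 3, the only unmarked one. The marked spots, on wild-type arrays 1 and 2, read -1.62 and -1.85, within the knockout range. The difference was -0.88 from unmarked spots alone (n = 3 and 1) and -0.24 ± 0.34 with the marked spots kept (SE, n = 3 and 3; adjusted p = 0.851, limma). Its size therefore depended on whether marked spots entered, and the value with them kept did not pass.

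Pde5a is also known from smooth muscle, whose markers were read beside it. Of 8 such markers, 7 were well above background on at least 3 arrays, Lmod1 on none, and their mean level was -2.40 to -2.26 on knockout arrays and -2.23 to -2.14 on wild-type arrays. The knockout arrays were thus all lower for this list, and its part in the values of Pde5a was not tested. In bulk samples such as these, fewer cells of a type and less RNA per cell cannot be told apart.

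Markers of the epithelial compartments in which the ligands and kinase are made were compared in the same way. Surface colonocyte markers (7 of 8 on the array) had a mean level of 2.83 to 3.13 on knockout arrays and 2.96 to 3.20 on wild-type arrays. Goblet cell markers (8 of 8) lay at 3.40 to 3.47 on knockout arrays and 3.24 to 3.41 on wild-type arrays. Crypt base and cycling cell markers (8 of 8) lay at 0.69 to 0.90 on knockout arrays and 0.81 to 0.91 on wild-type arrays. Immune markers (8 of 8) lay at -1.81 to -1.57 on knockout arrays and -1.97 to -1.81 on wild-type arrays. Fibroblast markers (6 on the array, Pdgfra on 0 arrays above background) lay at -4.68 to -3.83 on knockout arrays and -4.93 to -4.13 on wild-type arrays. These ranges overlapped between genotypes with marked spots kept. Over the genes unmarked on all arrays, goblet cell markers (4 genes) were higher on every knockout array by a thin margin. They lay at 3.483 to 3.617 on knockout arrays and 3.336 to 3.476 on wild-type arrays. Of the tested goblet cell genes 5 of 5 had a positive log2 change, as did 10753 of 27916 features. On that basis immune markers (7 genes) were also higher, at -1.96 to -1.75 on knockout arrays and -2.13 to -2.02 on wild-type arrays. Surface colonocyte (2 genes), crypt base (5 genes) and fibroblast (4 genes) markers overlapped on the same basis. The highest knockout and lowest wild-type levels were 3.148 and 3.128 for surface colonocyte markers, and -0.504 and -0.516 for crypt base markers, also a thin margin. The part of these lists in the values of Prkg2 and Guca2b was not tested.

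The wider cGMP pathway was described with 60 other genes in 4 lists, of which 42 were tested. None passed (limma), against 0.208% of all features, and at an unadjusted p under 0.05 there were 2 genes higher and 3 lower in knockout, against 3.18% and 7.55% of all features. Their median log2 change was -0.07, where that of all features was -0.06. Of the 18 not tested, 10 were too dim and 8 had too many marked spots.

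Genes of other routes to cGMP came next. Of 9 tested genes 8 had a negative log2 change, with a median of -0.27, whereas 17163 of 27916 features were negative, and 0 passed. These genes were low on the scale, with a mean level of -4.05 to -3.98 on knockout arrays and -3.92 to -3.64 on wild-type arrays. The size of the median depended on the processing. It was -0.14 with normexp and -0.18 with quantile normalization, and ran from -0.36 to -0.14 over the settings. Smooth muscle markers were negative for 6 of 6 tested genes, with a median log2 change of -0.29, and endothelial markers for 2 of 2, with a median of -0.14. Fibroblast markers went the other way, with 3 of 4 tested genes positive and a median of 0.26. Over genes unmarked on all arrays, smooth muscle markers lay at -3.53 to -3.36 on knockout arrays and -3.24 to -3.13 on wild-type arrays, and endothelial markers at -3.54 to -3.39 on knockout arrays and -3.38 to -3.32 on wild-type arrays. With marked spots kept, the mean level of all 6 endothelial markers overlapped between genotypes. It was -7.10 to -6.61 on knockout arrays and -7.26 to -6.32 on wild-type arrays, with 4 of the 6 genes not above background. The part of these markers in the values of this list was not tested. Gucy1b2, a soluble guanylate cyclase subunit, had a log2 change of -0.70 ± 0.18 (SE; adjusted p = 0.283, limma). Its probe read -4.68, -4.58 and -4.18 on knockout arrays 1 to 3, against -3.79, -3.55 and -4.00 on wild-type arrays 1 to 3, with no overlap, which held downward for 12.5% of all features. Nos3, the endothelial nitric oxide synthase, had a log2 change of -0.30 ± 0.12 and Npr2, the receptor of C-type natriuretic peptide, of -0.31 ± 0.13. The mean level of Nos3 was low, -6.66 in knockout and -6.36 in wild-type. Of the 17 listed genes, 8 were too dim to test: Npr1, Npr3, Nppa, Nppc, Gucy1a1, Gucy1b1, Gucy2f and Gucy2g.

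Enzymes and transporters that remove cGMP were mixed. Of 15 tested genes 8 were positive and 7 negative, with a median log2 change of 0.02, and 0 passed. Abcc5, a pump that exports cyclic nucleotides, had a log2 change of 0.63 ± 0.22 (SE; adjusted p = 0.380, limma), and its 5 tested probes gave between 0.12 and 0.63. Pde1a, a calmodulin-dependent phosphodiesterase, had a log2 change of -0.59 ± 0.22, and Pde6b, a phosphodiesterase of photoreceptors, of 0.49 ± 0.21. Their mean levels were low, -5.28 and -4.04 in knockout and -4.69 and -4.53 in wild-type. The cGMP-stimulated enzyme Pde2a, named after its value was seen, had a log2 change of 0.17 ± 0.15.

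Effectors and transport outputs had changes in both directions. Of 11 tested genes 4 were positive and 7 negative, with a median log2 change of -0.04, and 0 passed at either threshold. Slc9a3r2, whose scaffold protein ties the kinase to the sodium-proton exchanger, had a log2 change of 0.35 ± 0.15 (SE; adjusted p = 0.475, limma), and both of its probes were positive, at 0.31 and 0.35. The cyclic nucleotide-gated channel genes Cnga3 and Cnga2 had log2 changes of -0.36 ± 0.19 and -0.47 ± 0.33. The mean level of Cnga2 was low, -6.53 in knockout and -6.06 in wild-type. Cftr, the chloride channel at the end of the pathway, was singled out for that role after its value was seen and had a log2 change of 0.02 ± 0.14 (n = 3 and 3; adjusted p = 0.977, limma), with a second probe at 0.11.

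Slc9a3, the sodium-proton exchanger gene, was kept out of the test by marked spots and is described for its role at the end of the pathway, a choice made after its value was seen. With 1 marked knockout spot and 2 marked wild-type spots kept, it read -0.68, -1.24 and 0.01 on knockout arrays 1 to 3, against 0.57, 0.94 and -0.35 on wild-type arrays 1 to 3. Knockout array 3 lay above wild-type array 3, so the groups overlapped. The log2 change was -1.02 ± 0.41 (SE; adjusted p = 0.460, limma), with 3 of the 6 spots behind it marked. The 3 other genes of the list kept out in this way, Ezr, Slc9a2 and Slc26a3, had smaller log2 changes of 0.17 ± 0.26, -0.13 ± 0.18 and -0.05 ± 0.20 (SE) with marked spots kept.

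Transcription factors reported at the promoters of the ligand and receptor genes were the last list. Of 7 tested factors 2 were positive and 5 negative, with a median log2 change of -0.11, and 0 passed. Spdef, a goblet cell factor, had a log2 change of 0.26 ± 0.17 (SE), Gata4 of -0.65 ± 0.50 and Klf4 of -0.14 ± 0.17, with an adjusted p of 0.634 or more (limma). The mean level of Gata4 was low, -5.67 in knockout and -5.02 in wild-type. Gata6, Cdx2 and Hnf4g had too many marked spots to be tested, with log2 changes of 0.14 ± 0.15, 0.03 ± 0.15 and -0.14 ± 0.18 when those spots were kept.

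**Figure D4:**
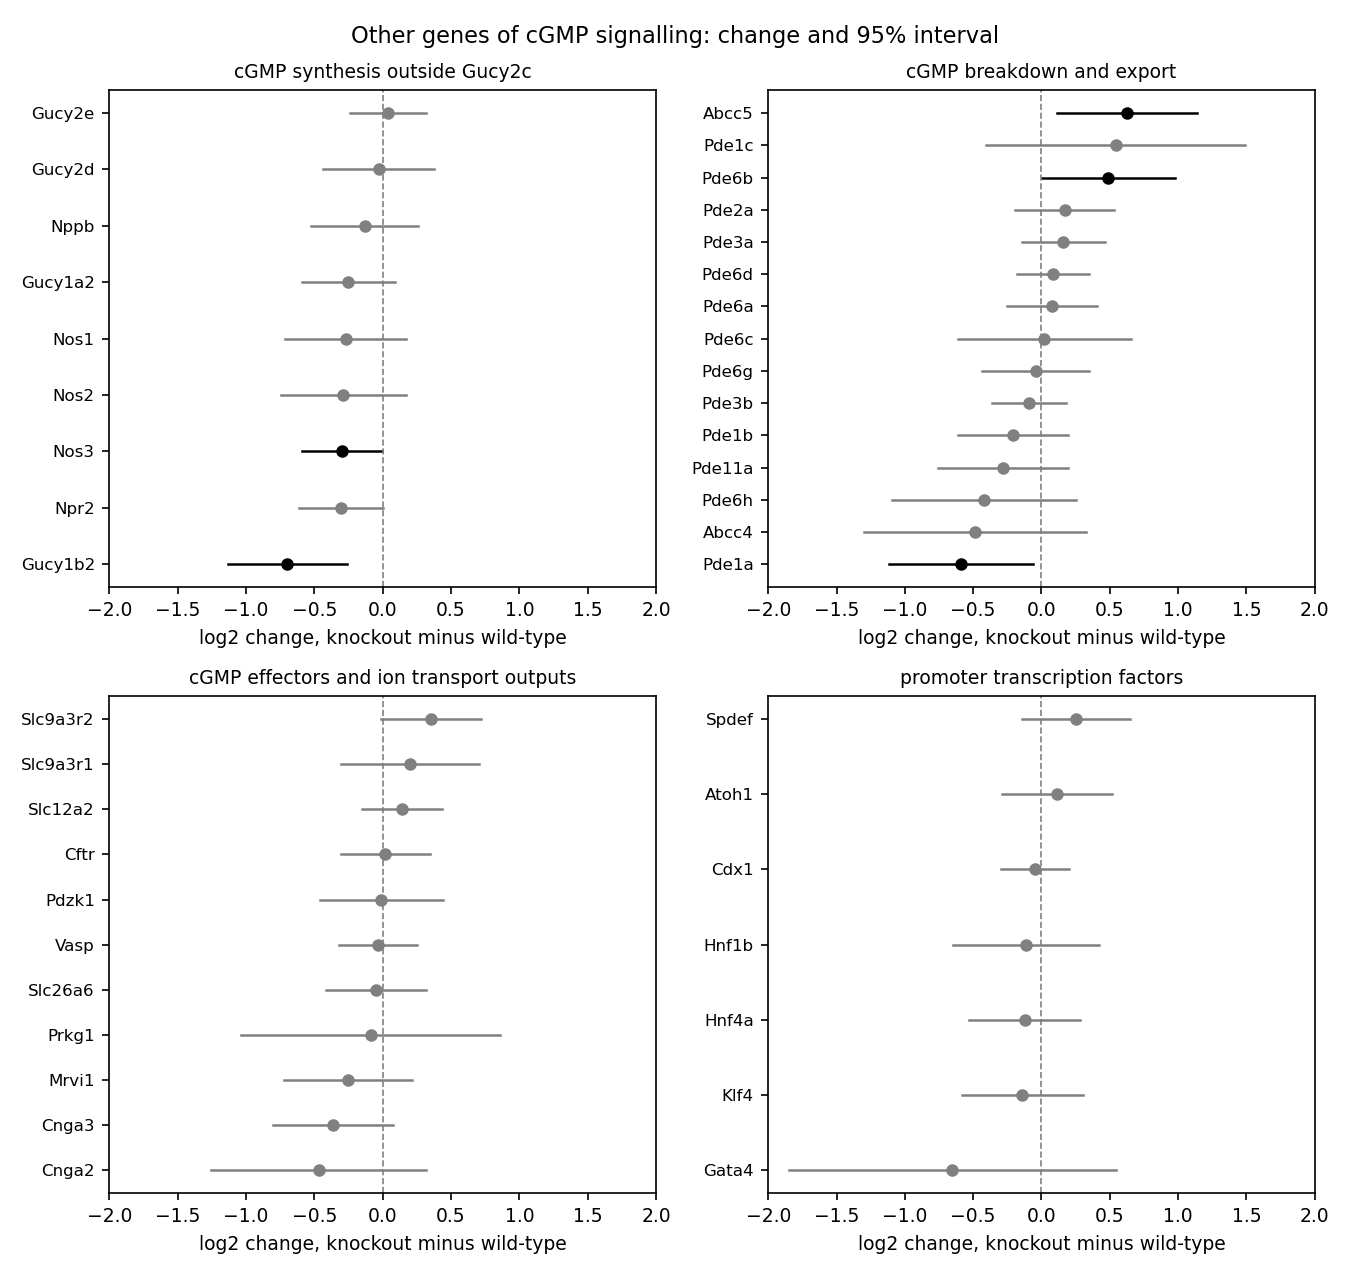
Log2 change, miR-31 knockout minus wild-type (horizontal axes), with its 95% interval from limma, for the 42 tested genes of the 4 cGMP lists. Black marks the 5 genes with an unadjusted p under 0.05, of which 0 passed after adjustment, and grey marks the others.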

How the data were processed

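RNA of colonic epithelium from 6 mice was hybridised to one-colour Agilent arrays. The deposited intensity of each spot comes, per the file headers, from Agilent Feature Extraction 11.5.1.1 (the submitters' processing notes name 10.7). That deposited intensity had its background subtracted by the software, and arrays were not scaled to one another. In the series table, 99.7% of values matched the scanner files to within 0.01 log2 units.

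From these, log2 intensity minus the 75th percentile of the array was computed over the 59305 non-control spots. Spots marked non-uniform, outlying or by hand were left out, and spots of a probe averaged. A probe was tested when well above background on at least 3 arrays and unmarked on at least 2 arrays of each group, and a gene was its brightest tested probe. Accessions were named through RefSeq (GRCm38.p6), for symbols and gene order only, as the array is annotated on mm9. Genotypes were compared with limma 3.58.1 in R 4.3.3 (package data.table, version 1.17.8), two-sided with no covariate, with adjustment over 27916 features and a threshold of 0.05. The fit was tested on simulated data. Array number limits the precision. Named genes were the members, the 3 smallest unadjusted p-values of each list, the 3 tested genes on each side of the ligand pair and the 3 closest profiles of each member, besides those said to be chosen later and, after values were seen, the listed effectors and promoter factors kept out by marked spots. The members, lists and tests were chosen with earlier results of these data known. The scanner files used here hold the median and not the mean spot signal, so the planned normexp correction used the median. Lists name Slc9a3r1, Slc9a3r2 and Mrvi1 by the table's older symbols. One listed gene and the results that need it are not reported here.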

Additional observations from a re-analysis of the deposited data

How the results depend on the processing

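No member and 0 genes of the 4 lists passed under any of the alternatives run, 11 settings, 6 fits with 1 array left out and, for the members, 1 setting chosen after seeing the data (at least 1 unmarked array in each group). Guca2b, Gucy2c and Prkg2 kept a positive log2 change in all of these, between 0.32 and 0.62, 0.08 and 0.18, and 0.51 and 1.01, with adjusted p-values from limma of 0.245 to 0.753, 0.618 to 0.934 and 0.171 to 0.753. The highest value of Prkg2 comes from averaging its probes, where knockout array 1 is left with the brighter probe alone. Guca2a, at -0.0015, turned positive with quantile normalization (0.0167), the series table (0.002), array weights (0.0231), the slide column as a block (0.093) and the animal numbers as a block (0.0174), and ranged from -0.0577 to 0.0921 with 1 array left out, positive without knockout array 1 or wild-type array 3. The direction of Guca2a is thus not set by these data. Pde5a, at -0.88 from unmarked spots, was at -0.24 with marked spots kept. In the fits with 1 array left out, Guca2a or Guca2b can have 1 array in a group, which is assumed to vary like the others. With the slide column as a block, Guca2a rested on the column 2 pair alone and Guca2b on the column 1 pair alone. That fit left no spread of their own for these genes. Their SE, 0.27 for both, therefore came wholly from the variance of other features and not from these animals' values.

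The 58 features called overall became 100 with normexp, 35 without the filter on dim probes, 33 with probes above background on all 6 arrays, 106 with trend and robust variance, 103 with array weights and 216 with the slide column as a block. Without knockout array 2 or 3 they were 30 and 116, and without wild-type array 1, 2 or 3 they were 22, 28 and 38. The causes were not tested. No paired analysis was possible because the labels give no replicate numbers that the groups share. The blocks used, slide column and animal number, group arrays and do not match single mice by a labelled number. The animal number block called 62 features, and it joined knockout array 3 and wild-type array 3, whose animal numbers are far apart. Settings moved the median log2 change of all features by less than 0.1.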

Other observations

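The tested genes whose profile over the arrays, centred on its own mean, came closest to that of each member were listed as a description. For Prkg2 these were Traf1, a signalling adaptor of the tumour necrosis factor receptors, Tlr5, the receptor of bacterial flagellin, and Hsd17b13, a lipid droplet dehydrogenase, with root mean square distances of 0.10, 0.11 and 0.11 log2 units over 6 arrays and log2 changes of 0.60, 0.63 and 0.72. For Gucy2c they were Smarca5, Pan3 and Spg7, at 0.03, 0.03 and 0.04 log2 units over 6 arrays. For Guca2b they were Dennd1a, Zfp647 and Trpv1, at 0.02, 0.04 and 0.04 log2 units over the 5 arrays with an unmarked spot, and for Guca2a they were Amacr, Tspan15 and Necap1, at 0.01, 0.01 and 0.02 log2 units over 5 arrays. Between 11017 and 11553 genes were searched for each member. Choosing by profile over these same arrays makes the log2 changes of the chosen genes resemble that of their member.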
